A study of Mus musculus with 8 samples.

Results

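The lysosome is the degradative compartment of the cell, and 50 genes that build it were followed here. They were taken by gene symbol from the deposited expression table of 55226 genes, and all 50 were found. They comprise 14 lysosomal proteases and peptidases, 8 glycosidases, 8 lipid hydrolases and lipid-binding cofactors, 6 membrane and associated proteins, 2 transcription factors and 12 subunits of the proton pump. The cells were mouse bone marrow-derived macrophages, differentiated over 7 days from femoral marrow of C57BL/6 mice in medium with 10% serum and M-CSF at 10 ng/ml, the cytokine that drives macrophage growth. The mice were either PtipWT (WT) or PtipcKO (cKO), a conditional knockout of Ptip, whose gene symbol is Paxip1. The cells were left for 0 h or treated for 6 h with 100 ng/ml LPS, a bacterial cell wall component that activates macrophages. This gave 4 groups of 2 samples: WT at 0 h, WT after LPS, cKO at 0 h and cKO after LPS. The sources used here do not give the Cre driver, the deleted exons or the age of the mice, and nothing states whether a replicate number marks a mouse. The p-values below therefore measure the spread between these samples.

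Lysosomes receive material from endocytosis, phagocytosis and autophagy and break it down with acid hydrolases. The vacuolar ATPase pumps protons into the lumen through its membrane sector V0, driven by ATP hydrolysis in its cytosolic sector V1, and most of the hydrolases need the acid pH this produces. Macrophages are rich in lysosomes and use their proteases for microbial killing and for antigen processing. TFEB and TFE3 are transcription factors that bind the CLEAR element, a sequence with the core CACGTG, in front of many lysosomal genes.

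Values are rlog values from the authors' table, on a log2 scale that shrinks differences of genes with few reads, and sequencing depth per sample cannot be read from them. A gene is said to have risen or fallen where the limma model fitted to 11543 genes gave a Benjamini-Hochberg adjusted p under 0.05. Paxip1 read 4.50 in each resting WT sample, 3.82 and 4.08 in LPS-treated WT, 2.54 and 2.48 in resting cKO and 2.54 and 2.63 in LPS-treated cKO cells. It was lower in all 4 cKO samples. Il6, which LPS induces, rose by 5.76 in WT and by 4.80 in cKO. All 9 macrophage markers examined were expressed, and their summed level was 19.24 to 19.32 in resting WT, 19.48 to 19.53 in LPS-treated WT, 18.42 to 18.73 in resting cKO and 18.56 to 18.60 in LPS-treated cKO cells. Most of that sum is Lyz2, the gene of lysozyme, which differed by -0.92 between cKO and WT over both times (adjusted p = 0.0442). Itgam (-0.95, adjusted p = 0.0069), Cd14 (-0.80, adjusted p = 0.0432) and Mertk (-0.59, adjusted p = 0.0287) were also lower, and 8 of the 9 differences were negative. Of 8 neutrophil markers 2 passed the filter on low values. Their summed level was 6.82 to 7.42 in resting WT, 7.58 to 8.12 in LPS-treated WT, 7.94 to 8.03 in resting cKO and 8.54 to 8.76 in LPS-treated cKO cells. S100a8, which makes up most of that sum, was higher in cKO over both times (0.96, adjusted p = 0.0102). Camp, the other marker past the filter, gave no call (0.51, adjusted p = 0.329). S100a9 and Ngp, under the filter, were not higher in cKO. At 0 h and after LPS S100a9 averaged 1.17 and 1.81 in WT and 1.06 and 1.31 in cKO. Ngp averaged 2.72 and 3.26 in WT and 2.32 and 2.72 in cKO. Retnlg was listed at 0 in every sample and Ly6g was below 0. The 5 T and NK cell markers were all under the filter, at a summed level of 2.69 to 3.19 in WT and 3.60 to 3.81 in cKO. That gap comes mostly from Klrb1c. At 0 h and after LPS it averaged 2.65 and 2.17 in WT and 3.35 and 3.42 in cKO. Cd3e, Cd3g and Cd3d were below 0 in every sample, and Nkg7 lay between 0.47 and 0.74. Of the other lists 1 of 4 B cell, 1 of 4 dendritic, 3 of 3 mast cell and basophil, 0 of 4 erythroid and 0 of 4 fibroblast markers passed the filter. The part of the macrophage, neutrophil, T and NK cell markers in the genotype differences was not tested. In RNA from whole cultures, fewer cells of a type and less RNA per cell cannot be told apart.

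Most of the 50 genes were among the more abundant transcripts of these cells. All 50 passed the filter, and their median rlog over the 8 samples was 11.9. Of the 50, 35 lay in the top 10% of tested genes and 44 in the top 25%. Ctse and Galc ranked lowest, at percentiles 12.26 and 37.34 of the tested genes. To compare genes with each other, the rlog was reduced by the log2 of the exon length in kb. On this per-kb scale the protease genes ranged most widely in resting WT cells. Ctss, the gene of cathepsin S, which cleaves the invariant chain of MHC class II, was highest at 16.63. Psap, the precursor of the saposins that present lipids to hydrolases, followed at 15.46, and then Ctsz at 14.70, Ctsd at 14.60 and Ctsb at 14.29. Cathepsins S, B, Z and D together with prosaposin thus filled the first 5 places. At the other end stood Ctse at 2.60, Galc at 2.62 and the cholesterol transporter gene Npc1 at 3.94. The glycosidases ranged from Galc at 2.62 to Hexa at 12.34, and the lipid group from Npc1 at 3.94 to Psap at 15.46. The membrane group ran from Mcoln1 at 6.35 to Cd63 at 12.43. The pump genes were more alike, from Atp6v0a1 at 6.98 to Atp6v0b at 11.80. Tfeb at 4.80 and Tfe3 at 6.57 were among the lower members. Annotated exons of 16 members share bases with another gene, 34.4% of the exon bases for Ctsd and 26.8% for Ctsl. The gene that overlaps Ctsd is on the same strand, and Ctsl overlaps genes on both strands. The strand setting of the authors' counting is unknown, and it would not separate genes on the same strand. Those levels are therefore less certain.

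**Figure D1:**
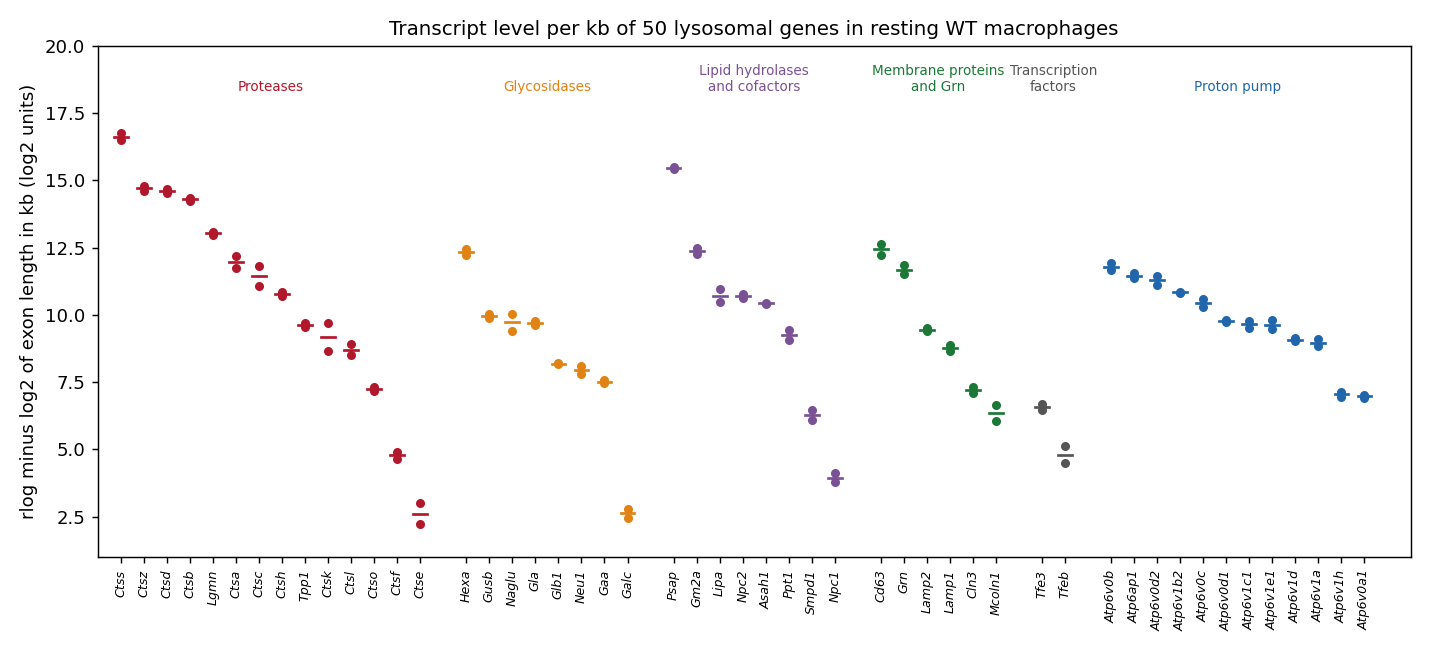
Expression level per kb of exon (rlog minus log2 of exon length in kb, vertical axis) of the 50 lysosomal genes in resting WT macrophages, grouped by role. Points are the 2 samples and short lines their mean. Ctss is highest at 16.63, and Ctse, at 2.60, is lowest.

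Replicates lay close together for most members. The median gap between the 2 samples of a group on the rlog scale was 0.23 in resting WT, 0.17 in LPS-treated WT, 0.15 in resting cKO and 0.11 in LPS-treated cKO cells. The widest gaps were those of Ctsk in WT at 0 h (9.25 and 10.28) and of Lamp1 in cKO at 0 h (10.91 and 11.88). Ctsk encodes the collagen-degrading cathepsin K of osteoclasts. Of 5 osteoclast markers, Dcstamp and Mmp9 passed the filter, while Ocstamp, Calcr and Oscar stayed below it.

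**Figure D2:**
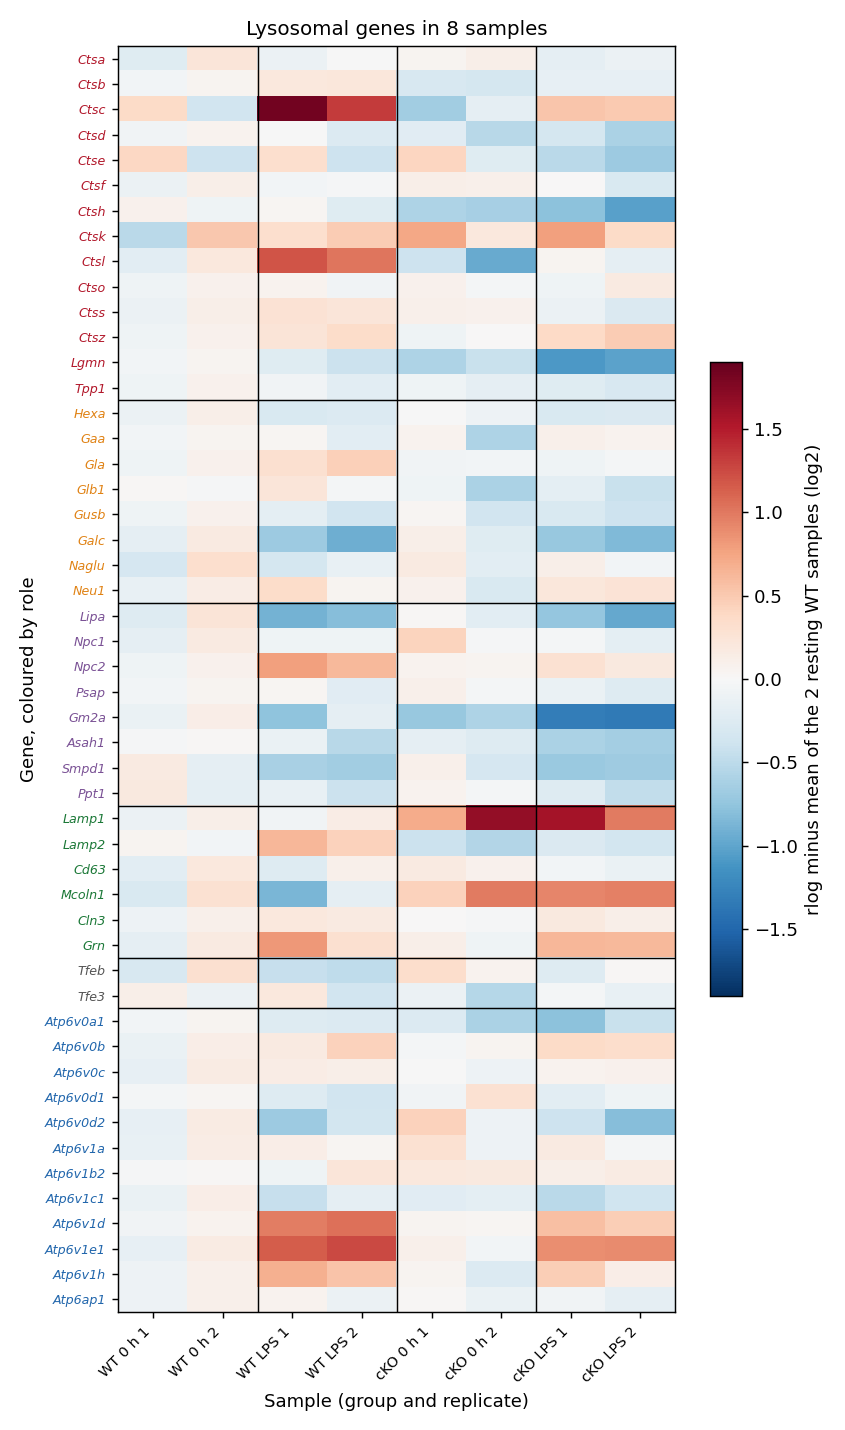
Each row is 1 of the 50 genes, with its name coloured by role, and each column 1 of the 8 samples. Colour is the rlog of the sample minus the mean of the 2 resting WT samples (log2), from blue (lower) to red (higher). Most rows are pale: 37 of 50 genes differed by under 0.5 between LPS and 0 h in WT.

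The first comparison asks how 6 h of LPS alters the lysosomal genes of WT macrophages. Of the 50 members, 8 rose and 3 fell, 22.0% in all. Of all tested genes 42.2% were called in this comparison, 22.5% higher and 19.7% lower. The median difference was -0.05 among the members and -0.01 among all tested genes, and 37 members differed by less than 0.5 in either direction. LPS and 0 h samples did not overlap for 14 members that were higher and 13 that were lower. Among all tested genes 71.3% did not overlap, 35.7% higher and 35.6% lower. The difference reached 1 for 4 genes, Ctsc, Ctsl, Atp6v1d and Atp6v1e1, all higher. In cKO macrophages 4 members rose and 6 fell, which is 20% of them, and no difference reached 1. Of all tested genes 37% were called there, 19.6% higher and 17.5% lower. In cKO the LPS and 0 h samples did not overlap for 14 members that were higher and 22 that were lower, against 72.5% of all genes, 35.6% higher and 36.9% lower. The share of genes called varied with their level. Among genes with a mean rlog of 6 to 9, 45.8% were called in WT, against 2 of 5 members in that range. From 9 to 12 the share was 51.1%, against 4 of 22 members. From 12 to 15 the share was 53.1%, against 5 of 17 members, and from 15 to 20 it was 12%, against 0 of 5 members. In cKO 47.6% of genes from 12 to 15 were called, against 7 of 17 members, and 48% from 9 to 12, against 1 of 22. The split between rises and falls depends on how samples are scaled. After quantile normalization of the samples, which lowers the LPS samples at high expression levels, 2 members rose and 22 fell in WT, and 0 rose and 20 fell in cKO. Of the 11 WT calls 5 held there, and of the 10 cKO calls 6. Without a filter on low values 8 of the 11 and 3 of the 10 held.

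Of 15 members called in either genotype, 6 were called in both. Ctsc, Atp6v1d and Atp6v1e1 rose in both, and Lipa, Galc and Smpd1 fell in both. Of all tested genes 5621 were called in either genotype, and 1949 rose and 1575 fell in both. No member rose in one genotype and fell in the other, and of all tested genes 1 did. In this fit, member calls in WT only were the rises of Ctsl, Npc2, Lamp2, Gla and Atp6v1h. Calls in cKO only were the rise of Grn and the falls of Lgmn, Gm2a and Atp6v0d2. These calls in 1 genotype do not show that the genotypes differ. The interaction, which tests whether the response to LPS differs between genotypes, was called for 0 of the 50 members and 0% of all genes by limma. The unadjusted p was under 0.05 for 751 of the 11543 tested genes and for 2 of the 50 members. These members were Atp6v1d (interaction -0.54, adjusted p = 0.699) and Npc2 (interaction -0.53, adjusted p = 0.716).

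**Figure D3:**
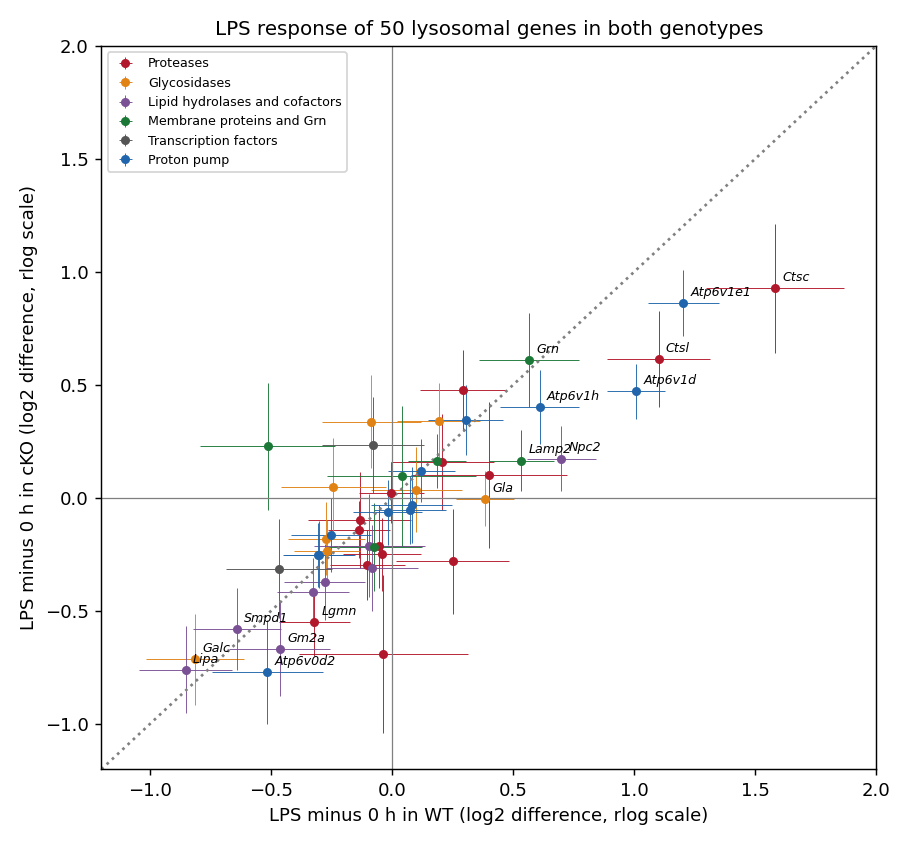
Log2 difference between LPS and 0 h on the rlog scale for the 50 genes in WT (horizontal axis) and in cKO (vertical axis). Points are coloured by role, bars are standard errors from the limma model, the dotted line marks equal responses, and genes called in either genotype are named. Of the 50 genes, 41 lie on the same side of 0 in both genotypes, as do 9620 of the 11543 tested genes.

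Among the 14 proteases and peptidases, 2 rose and 0 fell in WT, and 1 rose and 1 fell in cKO. Ctsc encodes cathepsin C, a dipeptidyl peptidase that activates granule serine proteases. Its rlog was 14.35 and 13.63 in resting WT, 15.82 and 15.32 in LPS-treated WT, 13.33 and 13.82 in resting cKO and 14.51 and 14.49 in LPS-treated cKO cells. Both LPS samples lay above both 0 h samples in each genotype, and the cKO samples after LPS were well below the WT ones. Ctsc rose by 1.58 in WT (SE 0.28, adjusted p = 0.00254) and by 0.93 in cKO (SE 0.28, adjusted p = 0.0334). In WT the rise amounts to 3-fold on the rlog scale. The call in cKO was lost without cKO 0 h replicate 1 (0.68, adjusted p = 0.175) and without either cKO LPS sample. Ctsl encodes cathepsin L, a cysteine endopeptidase. Its rlog was 11.21 and 11.60 in resting WT, 12.60 and 12.41 in LPS-treated WT, 11.01 and 10.44 in resting cKO and 11.45 and 11.23 in LPS-treated cKO cells. The WT samples after LPS stood above all the others. Ctsl rose by 1.10 in WT (SE 0.21, adjusted p = 0.00355), and its difference in cKO was 0.62 (adjusted p = 0.0505). Quantile normalization ended the WT calls of Ctsl, at 0.48 (adjusted p = 0.125), and of Ctsc, at 0.77 (adjusted p = 0.063).

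Lgmn encodes legumain, an asparaginyl endopeptidase that processes other lysosomal proteases. Its rlog was 14.19 and 14.31 in resting WT, 14.01 and 13.85 in LPS-treated WT, 13.67 and 13.82 in resting cKO and 13.15 and 13.23 in LPS-treated cKO cells. The groups descended in that order without overlap. Lgmn fell by 0.55 with LPS in cKO (SE 0.15, adjusted p = 0.0198), and in WT the difference was -0.32 (adjusted p = 0.116). The call in cKO was lost without cKO 0 h replicate 2 (adjusted p = 0.102), cKO LPS replicate 1 (adjusted p = 0.123) or cKO LPS replicate 2 (adjusted p = 0.0885). The remaining proteases lay between -0.14 (Tpp1) and 0.40 (Ctsk) in WT. Cathepsins B, D and S, which are among the most abundant of the family, showed differences in WT of 0.21, -0.13 and 0.25, and in cKO of 0.16, -0.10 and -0.28. None of these passed the test.

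The glycosidases remove sugars from glycoproteins and glycolipids. In WT 1 of 8 rose and 1 fell, and in cKO 0 rose and 1 fell. Galc encodes galactosylceramidase, which degrades myelin lipids. Its rlog was 6.34 and 6.68 in resting WT and 5.81 and 5.58 in LPS-treated WT, and 6.62 and 6.27 in resting cKO and 5.79 and 5.68 in LPS-treated cKO cells. All LPS samples lay below all 0 h samples. Galc fell by 0.81 in WT (SE 0.20, adjusted p = 0.0119) and by 0.71 in cKO (SE 0.20, adjusted p = 0.0239), to 0.569 and 0.609 of the resting level on the rlog scale. The WT call was lost without WT 0 h replicate 2 (adjusted p = 0.0805) or WT LPS replicate 2 (adjusted p = 0.0624), and the cKO call without cKO 0 h replicate 1 (adjusted p = 0.14) or either cKO LPS sample. Gla encodes alpha-galactosidase A. Its rlog was 11.34 and 11.49 in resting WT, 11.72 and 11.88 in LPS-treated WT, 11.35 and 11.37 in resting cKO and 11.34 and 11.37 in LPS-treated cKO cells. Only the WT samples after LPS stood apart. Gla rose by 0.38 in WT (SE 0.12, adjusted p = 0.0327) and stood at -0.22 after quantile normalization, and in cKO its difference was -0.00 (adjusted p = 0.983). The call in WT was lost without WT 0 h replicate 1 (0.31, adjusted p = 0.152), without WT LPS replicate 2 (0.31, adjusted p = 0.127) and without either cKO LPS sample. The other 6 glycosidases lay between -0.27 (Gusb) and 0.19 (Neu1) in WT.

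Of the 8 genes that handle lipids, 1 rose and 2 fell in WT, and 0 rose and 3 fell in cKO. Lipa encodes lysosomal acid lipase, which releases cholesterol and fatty acids from cholesteryl esters and triglycerides. Its rlog was 13.22 and 13.72 in resting WT and 12.57 and 12.67 in LPS-treated WT, and 13.49 and 13.27 in resting cKO and 12.74 and 12.50 in LPS-treated cKO cells. Every LPS sample was below every 0 h sample. Lipa fell by 0.85 in WT (SE 0.19, adjusted p = 0.00775) and by 0.76 in cKO (SE 0.19, adjusted p = 0.015), to 0.554 and 0.590 of the resting level. The WT call held under all 17 alternative analyses, and the cKO call was lost without cKO 0 h replicate 1 (adjusted p = 0.0828) or cKO LPS replicate 2 (adjusted p = 0.114). Smpd1 encodes acid sphingomyelinase. Its rlog was 8.19 and 7.83 in resting WT, 7.39 and 7.34 in LPS-treated WT, 8.10 and 7.69 in resting cKO and 7.30 and 7.34 in LPS-treated cKO cells. Again all LPS samples were the lower ones. The falls were 0.64 in WT (SE 0.18, adjusted p = 0.0208) and 0.58 in cKO (SE 0.18, adjusted p = 0.0358). In WT the call was lost without WT 0 h replicate 1 (adjusted p = 0.135) or either WT LPS sample, and in cKO without cKO 0 h replicate 1 (adjusted p = 0.206) or either cKO LPS sample.

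Npc2 encodes the soluble protein that carries cholesterol out of the lysosome together with NPC1, the protein of Npc1. Its rlog was 13.06 and 13.23 in resting WT, 13.93 and 13.77 in LPS-treated WT, 13.22 and 13.21 in resting cKO and 13.45 and 13.33 in LPS-treated cKO cells. The WT samples after LPS were the highest. Npc2 rose by 0.70 in WT (SE 0.14, adjusted p = 0.00474), a call that ended after quantile normalization, where the difference was -0.09. Its difference in cKO was 0.17 (adjusted p = 0.376), and that of Npc1 in WT was -0.08. Gm2a encodes the activator protein that presents the ganglioside GM2 to hexosaminidase. Its rlog was 14.29 and 14.54 in resting WT, 13.66 and 14.25 in LPS-treated WT, 13.70 and 13.83 in resting cKO and 13.11 and 13.08 in LPS-treated cKO cells. The lowest values were those of cKO after LPS. Gm2a fell by 0.67 in cKO (SE 0.21, adjusted p = 0.035), a call lost without any 1 of the 4 cKO samples. Its difference in WT was -0.46 (adjusted p = 0.107).

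Among the 6 membrane and associated proteins, 1 rose with LPS in each genotype. Lamp2 encodes LAMP2, a heavily glycosylated protein of the lysosomal membrane that takes part in chaperone-mediated autophagy. Its rlog was 12.76 and 12.66 in resting WT, 13.34 and 13.15 in LPS-treated WT, 12.30 and 12.16 in resting cKO and 12.43 and 12.36 in LPS-treated cKO cells. The WT samples after LPS were highest, and all cKO samples were below all WT samples. Lamp2 rose by 0.53 in WT (SE 0.13, adjusted p = 0.0128) and stood at -0.21 after quantile normalization. The WT call was lost without WT 0 h replicate 2 (adjusted p = 0.0607) or WT LPS replicate 1 (adjusted p = 0.0602), and in cKO the difference was 0.17 (adjusted p = 0.374). Grn encodes progranulin, a secreted glycoprotein that lysosomes cut into granulins. Its rlog was 13.31 and 13.65 in resting WT, 14.30 and 13.79 in LPS-treated WT, 13.60 and 13.39 in resting cKO and 14.12 and 14.10 in LPS-treated cKO cells. LPS samples were above 0 h samples in both genotypes. Grn rose by 0.61 in cKO (SE 0.21, adjusted p = 0.0481), lost without any 1 of the 4 cKO samples, and its difference in WT was 0.57 (adjusted p = 0.0568). The 2 transcription factor genes did not pass the test in any comparison. Tfeb lay at 7.00 and 7.61 in resting WT, 6.86 and 6.82 in LPS-treated WT, 7.63 and 7.38 in resting cKO and 7.06 and 7.33 in LPS-treated cKO cells. Its difference with LPS was -0.47 in WT (adjusted p = 0.12) and -0.31 in cKO (adjusted p = 0.299). Tfe3 differed by -0.08 in WT and 0.24 in cKO.

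Of the 12 proton pump genes 3 rose and 0 fell in WT, and 2 rose and 1 fell in cKO. Of the 6 V1 genes, which encode the cytosolic ATP-hydrolysing part, 3 rose in WT, 2 rose in cKO and none fell. The WT share is 50%, against 42.2% of all genes called in either direction and 22.5% called higher. The cKO share is 33.3%, against 37% called in either direction and 19.6% called higher. Of the 5 V0 genes, which encode the membrane part, none rose in either genotype and 1 fell in cKO (20%, against 17.5% of all genes called lower). The V0 isoform genes Atp6v0a2 and Tcirg1, which are not among the 12, rose in both genotypes, and a difference between the sectors was not tested. Atp6v1e1 encodes subunit E of the peripheral stalk. Its rlog was 11.51 and 11.83 in resting WT and 12.82 and 12.93 in LPS-treated WT, and 11.77 and 11.63 in resting cKO and 12.56 and 12.57 in LPS-treated cKO cells. Atp6v1d encodes subunit D of the central rotor. It lay at 11.21 and 11.35 in resting WT and 12.25 and 12.33 in LPS-treated WT, and 11.34 and 11.32 in resting cKO and 11.86 and 11.74 in LPS-treated cKO cells. For both genes all LPS samples were above all 0 h samples, and the LPS samples of WT were above those of cKO. Atp6v1e1 rose by 1.20 in WT (SE 0.15, adjusted p = 0.000307) and by 0.86 in cKO (SE 0.15, adjusted p = 0.00223). Atp6v1d rose by 1.01 in WT (SE 0.12, adjusted p = 0.000281) and by 0.47 in cKO (SE 0.12, adjusted p = 0.0154). On the rlog scale the WT rises are 2.30-fold and 2.01-fold. Both WT calls held under all 17 alternatives, but quantile normalization reduced the rises to 0.40 for Atp6v1d and 0.475 for Atp6v1e1. In cKO it ended both calls, with 0.004 for Atp6v1d (adjusted p = 0.98) and 0.37 for Atp6v1e1 (adjusted p = 0.0957), and the cKO call of Atp6v1d was lost without any 1 of the 4 cKO samples (adjusted p = 0.0569 to 0.11).

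Atp6v1h encodes the regulatory subunit H. Its rlog was 10.23 and 10.43 in resting WT, 11.01 and 10.87 in LPS-treated WT, 10.38 and 10.07 in resting cKO and 10.79 and 10.46 in LPS-treated cKO cells. The groups of each genotype did not overlap. Atp6v1h rose by 0.61 in WT (SE 0.16, adjusted p = 0.0171), a call lost without WT 0 h replicate 1 (adjusted p = 0.0984) or WT LPS replicate 1 (adjusted p = 0.0737), and its difference in cKO was 0.40 (adjusted p = 0.0882). The WT call also ended after quantile normalization, at 0.13 (adjusted p = 0.585), and without a filter on low values (adjusted p = 0.0692). Atp6v0d2 encodes the d2 isoform of a V0 subunit, known from osteoclasts and macrophages. Its rlog was 12.57 and 12.89 in resting WT, 12.05 and 12.38 in LPS-treated WT, 13.16 and 12.64 in resting cKO and 12.34 and 11.93 in LPS-treated cKO cells. LPS samples were the lower ones in both genotypes. Atp6v0d2 fell by 0.77 in cKO (SE 0.23, adjusted p = 0.0304), lost without cKO 0 h replicate 1 (adjusted p = 0.172) or cKO LPS replicate 2 (adjusted p = 0.2), and its difference in WT was -0.51 (adjusted p = 0.106). The d1 isoform gene Atp6v0d1 differed by -0.30 in WT and -0.25 in cKO, and neither passed. The proteolipid genes Atp6v0b and Atp6v0c, whose products form the rotating ring, differed by 0.30 and 0.12 in WT, without a call. Atp6ap1, the gene of an accessory subunit, belongs to neither sector and gave no call.

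**Figure D4:**
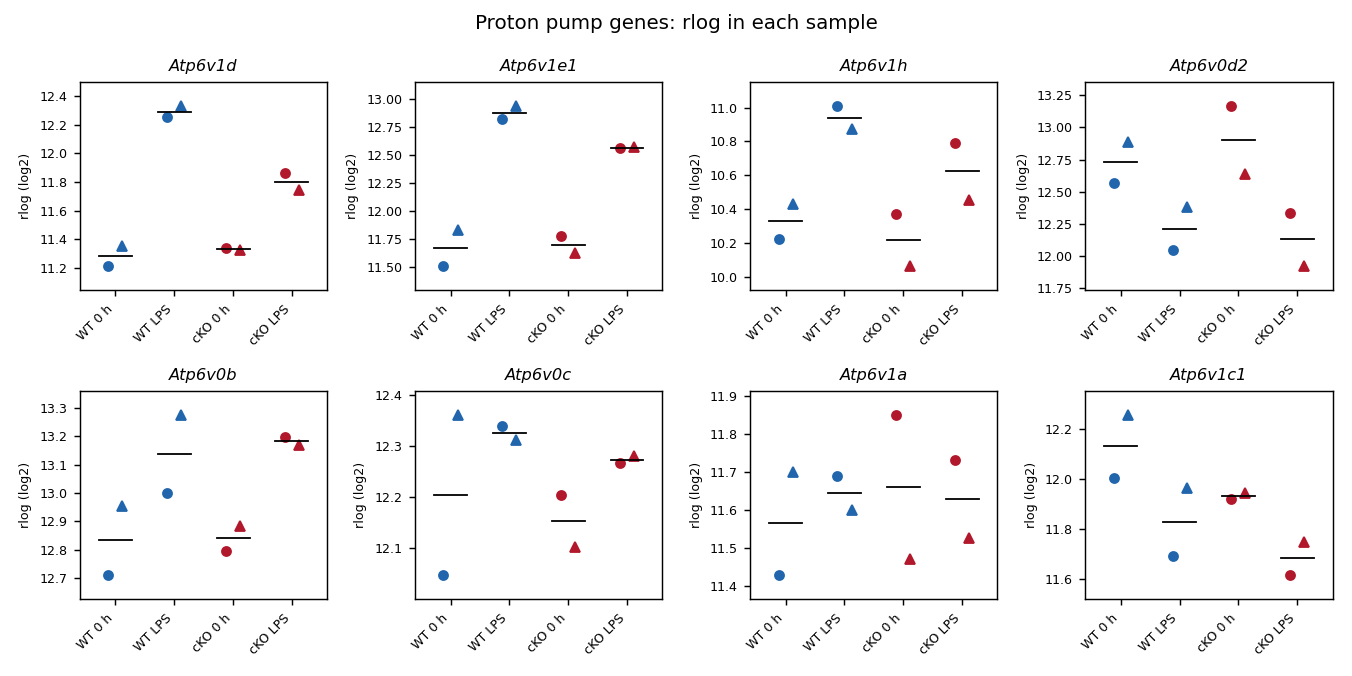
The rlog (log2, vertical axis) of 8 proton pump genes in each of the 8 samples, WT in blue and cKO in red. Circles are replicate 1, triangles replicate 2 and lines the mean of 2, and each panel has its own axis range. Atp6v1d and Atp6v1e1 lie higher in every LPS sample than in any 0 h sample.

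The next comparisons set cKO against WT macrophages. At 0 h limma called 0 of the 50 members, against 0.251% of all tested genes (0.052% higher and 0.199% lower). The unadjusted p was under 0.05 for 8 of the 50 members and for 1256 of the 11543 tested genes. After LPS 1 member was higher in cKO and 4 were lower, which is 10% of them, against 3.97% of all genes (1.51% higher and 2.46% lower). Mcoln1 was higher, and Ctsl, Ctsh, Lgmn and Lamp2 were lower. Averaged over both times 2 members were higher (Lamp1 and Mcoln1) and 5 lower (Ctsl, Ctsh, Lgmn, Gm2a and Lamp2), which is 14% of them, against 7.02% of all genes (2.88% higher and 4.14% lower). Of the differences after LPS 36 of 50 were negative, as were 6228 of those of the 11543 tested genes. The members' median was -0.08 against -0.03 for all genes. After quantile normalization the members' median was 0.0995 and that of all genes -0.0041, so its sign depends on how samples are scaled. The samples of the genotypes did not overlap at 0 h for 3 members that were higher and 11 that were lower, against 41.2% of all genes (19.3% higher and 21.9% lower). After LPS they did not overlap for 7 higher and 21 lower members, against 53% of all genes (23.3% higher and 29.7% lower). All 5 calls after LPS ended without WT LPS replicate 1, cKO LPS replicate 1 or cKO LPS replicate 2, and 3 of 5 held without WT LPS replicate 2. Of the 7 averaged calls, 0 held without cKO LPS replicate 2, 3 without cKO LPS replicate 1 and 5 without WT 0 h replicate 1. Directions did not change in these fits. Without a filter on low values 0 of the 5 and 3 of the 7 calls held, and after quantile normalization 1 of the 5 and 5 of the 7.

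The 3 proteases that were lower in cKO were Ctsl, Ctsh and Lgmn. Ctsh encodes cathepsin H, an aminopeptidase. Its rlog was 13.04 and 12.86 in resting WT, 12.98 and 12.71 in LPS-treated WT, 12.36 and 12.31 in resting cKO and 12.17 and 11.91 in LPS-treated cKO cells. All 4 cKO samples were below all 4 WT samples. Its difference between genotypes was -0.61 in resting cells (adjusted p = 0.217) and -0.81 after LPS (SE 0.15, adjusted p = 0.0315). Averaged over both times the difference was -0.71 (SE 0.11, adjusted p = 0.0104), which is 0.611 of the WT level on the rlog scale. Lgmn, with the values given above, also had no overlap between the 4 cKO and the 4 WT samples. Its difference was -0.51 in resting cells (adjusted p = 0.267), -0.74 after LPS (SE 0.15, adjusted p = 0.0355) and -0.62 on average (SE 0.10, adjusted p = 0.0148). Ctsl gave the largest negative difference after LPS among the 50 members. The 2 cKO samples after LPS, at 11.45 and 11.23, lay near the resting WT samples, at 11.21 and 11.60. Its difference was -0.68 in resting cells (adjusted p = 0.295), -1.16 after LPS (SE 0.21, adjusted p = 0.0273) and -0.92 on average (SE 0.15, adjusted p = 0.013). Ctsc, at -1.07 after LPS (adjusted p = 0.0756) and -0.74 on average (adjusted p = 0.0645), did not pass. The other 6 cysteine cathepsin genes gave no call on average, with differences of -0.34 for Ctsb, -0.18 for Ctss, 0.003 for Ctsf, 0.03 for Ctso, 0.05 for Ctsz and 0.32 for Ctsk.

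Gm2a was lower in cKO on average (-0.76, SE 0.15, adjusted p = 0.0231). The lowest WT sample, at 13.66, lay below the 2 resting cKO samples, so the genotypes overlapped. The call was lost without cKO LPS replicate 1 (adjusted p = 0.085), cKO LPS replicate 2 (adjusted p = 0.106), WT 0 h replicate 2 (adjusted p = 0.0554) or cKO 0 h replicate 1 (adjusted p = 0.0513). The other lipid genes and the glycosidases gave no call between genotypes. Lamp2 was lower in cKO, with a difference of -0.85 after LPS (SE 0.13, adjusted p = 0.0192) and of -0.66 on average (SE 0.10, adjusted p = 0.00902). In resting cells the difference was -0.48 (adjusted p = 0.252). The related gene Lamp1, which encodes the other major glycoprotein of the lysosomal membrane, differed in the opposite direction. Its rlog was 10.09 and 10.32 in resting WT, 10.14 and 10.35 in LPS-treated WT, 10.91 and 11.88 in resting cKO and 11.79 and 11.19 in LPS-treated cKO cells. All 4 cKO samples were above all 4 WT samples. The differences with LPS were 0.04 in WT and 0.10 in cKO, without a call. Lamp1 was higher in cKO by 1.22 on average (SE 0.22, adjusted p = 0.0183), 2.33-fold on the rlog scale. The difference was 1.19 in resting cells (adjusted p = 0.232) and 1.25 in LPS-treated cells (adjusted p = 0.0634). At 0 h the difference was 1.68 without cKO 0 h replicate 1 (adjusted p = 0.0322). The averaged call was lost without WT 0 h replicate 1, WT LPS replicate 1 or either cKO LPS sample, with adjusted p between 0.0534 and 0.0703.

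Mcoln1 encodes TRPML1, a cation channel that releases calcium from lysosomes. Its rlog was 8.97 and 9.56 in resting WT, 8.40 and 9.10 in LPS-treated WT, 9.70 and 10.25 in resting cKO and 10.19 and 10.22 in LPS-treated cKO cells. Again the 4 cKO samples lay above the 4 WT samples. Mcoln1 was higher in cKO by 1.45 after LPS (SE 0.28, adjusted p = 0.0325), 2.74-fold on the rlog scale, and by 1.08 on average (SE 0.20, adjusted p = 0.0197). The difference at 0 h was 0.71 (adjusted p = 0.42). Members whose 4 cKO and 4 WT samples did not overlap were Lamp1 and Mcoln1, both higher, and Ctsh, Lgmn, Lamp2, Glb1 and Ctsb, all lower. Over all tested genes 5.8% did not overlap in this way, 3.16% higher and 2.64% lower. Tfeb and Tfe3 gave averaged differences of 0.28 and -0.17, without a call. None of the 12 pump genes passed in a genotype comparison, and the nearest was Atp6v1d after LPS (-0.49, adjusted p = 0.0615).

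**Figure D5:**
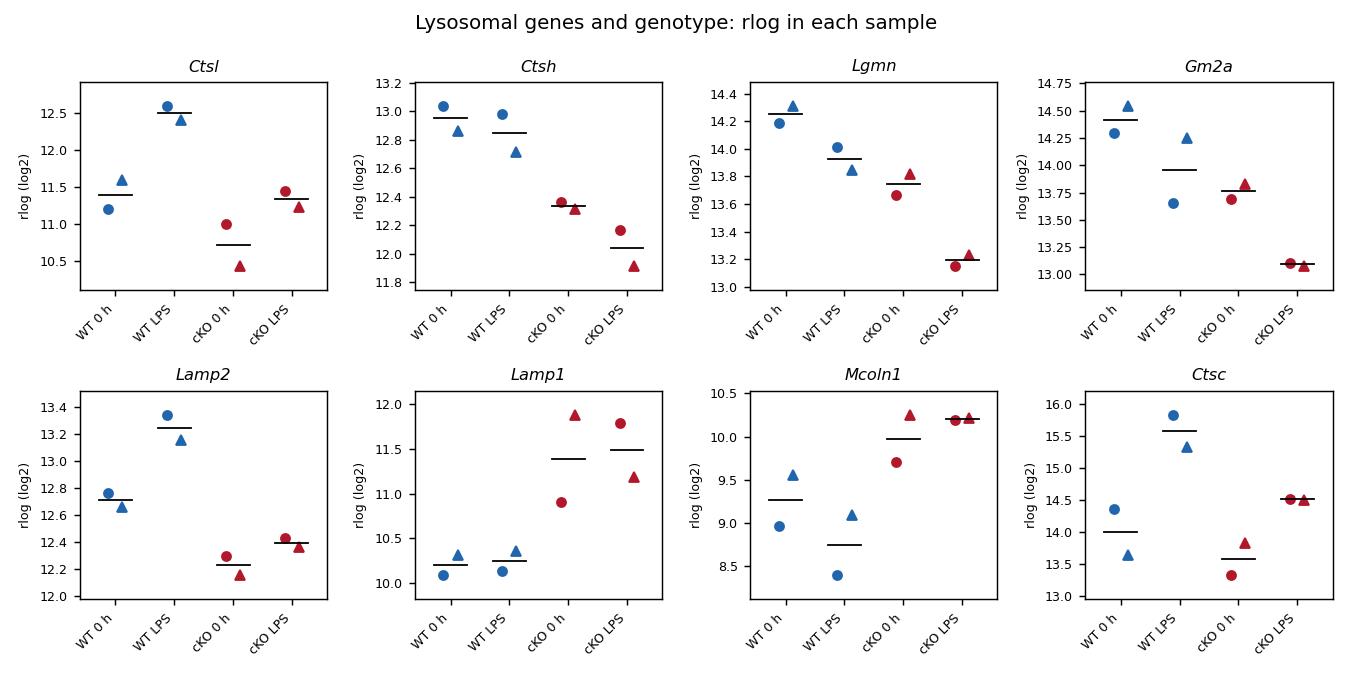
The rlog (log2, vertical axis) of 8 lysosomal genes in each of the 8 samples, WT in blue and cKO in red. Circles are replicate 1, triangles replicate 2 and lines the mean of 2, and each panel has its own axis range. Lamp1 and Mcoln1 are higher and Ctsh, Lgmn and Lamp2 lower in all 4 cKO samples than in any WT sample, while Ctsl and Gm2a overlap.

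Lamp1 and Mcoln1 are on the same chromosome in the GRCm38 annotation, Lamp1 at chr8:13159161-13175338 and Mcoln1 at chr8:3500457-3515232, both on the plus strand. Of 623 tested genes on chromosome 8, 4.33% were higher in cKO on average, against 2.88% of all tested genes, and on chromosome 15 the share was 4.81%. Chromosome 8 carries 5 of the 50 members. Its other 3, Asah1, Atp6v0d1 and Atp6v1b2, had averaged differences of -0.25, 0.14 and 0.12, without a call. Hgsnat and Tmem192, lysosomal genes outside the 50 that were also higher in cKO on average, lie on chromosome 8 too. Slc15a4, Cln6 and Akt1, likewise higher, lie on chromosomes 5, 9 and 12. At 0 h chromosome 8 had 2 genes higher in cKO, of 6 among all tested genes. A part of chromosomal position in these differences was not tested. Annotated exons of the gene Grtp1 on the opposite strand cover 9.31% of the exon bases of Lamp1, and Ctsl shares bases with 2 annotated genes.

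The authors' deposited table gives its own fold changes and adjusted p-values, which can be set beside these calls. In the authors' deposited table Lamp1 alone passed an adjusted p of 0.05 at 0 h, with a log2 fold change of 1.41 (adjusted p = 0.00138). After LPS the authors' deposited table has 2 members higher and 6 lower in cKO, among them all 5 called here, with Lamp1 at 1.46 and Mcoln1 at 1.61. Of the 3 not called here, Lamp1 is higher and Ctsc and Gm2a are lower. Over all genes the authors' deposited table has 72 higher and 104 lower in cKO at 0 h, and 296 higher and 350 lower after LPS. For LPS in WT the authors' deposited table has 6 members higher and 1 lower, and all 7 were called here in the same direction. Other WT calls made here did not pass in the authors' deposited table. These were Gla (adjusted p = 0.264), Lamp2 (adjusted p = 0.0736), Galc (adjusted p = 0.064) and Smpd1 (adjusted p = 0.063). For LPS in cKO the authors' deposited table has 6 higher and 4 lower, of which 4 and 4 were called here, and it adds Ctsl and Ctsz as higher. The falls of Galc and Smpd1 in cKO did not pass in the authors' deposited table either (adjusted p = 0.113 and 0.0937). Over all genes the authors' deposited table has 1996 higher and 1410 lower with LPS in WT, and 1892 and 1349 in cKO. These totals and those between genotypes were counted over 55226 genes, of which 26727 read 0 in every sample. They therefore give no share that can be set beside that of the members. No member was called in opposite directions.

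Promoter sequences from RefSeq (GRCm38.p6) were available for 41 of the 50 members. The motif CACGTG, the core of the CLEAR element and a palindrome on both strands, occurred in the 250 bases before the start of 14 of the 41 genes (34.1%), against 6.86% of 27025 genes with a promoter. The longer palindrome TCACGTGA, which contains it, occurred in 6 of the 41 (14.6%), against 0.907% of genes. Stretches are shown for the members that hold the motif and were called in a comparison, with Ctsd and Cln3 added. They read 5′ to 3′ on the strand of the gene, with each CACGTG in capitals. The called members Ctsc, Galc, Lipa, Smpd1, Npc2, Gm2a, Lamp2, Grn, Atp6v1d and Atp6v1e1 lack the motif in this window. No promoter was available for the called members Ctsh, Atp6v1h and Atp6v0d2. Lamp1 has 4 copies within 69 bases just before its start, at chr8:13159092-13159160. The centres of the 2 copies of Mcoln1 lie 68 and 42 bases before its RefSeq start, that of Lgmn 46 bases and that of Ctsl 233 bases before theirs. Ctsd and Cln3, which gave no call, show the motif in an abundant hydrolase gene and in a membrane protein gene. Each of these holds a further copy that is not shown.

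Lamp1: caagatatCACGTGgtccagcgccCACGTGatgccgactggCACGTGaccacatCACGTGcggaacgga
Mcoln1, chr8:3500436-3500465: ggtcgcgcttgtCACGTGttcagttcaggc
Mcoln1, chr8:3500462-3500491: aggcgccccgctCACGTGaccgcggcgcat
Ctsl, chr13:64370739-64370768, minus strand: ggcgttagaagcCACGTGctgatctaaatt
Lgmn, chr12:102439124-102439153, minus strand: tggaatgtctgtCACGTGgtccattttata
Gla, chrX:134601215-134601244, minus strand: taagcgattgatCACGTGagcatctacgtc
Gla, chrX:134601182-134601211, minus strand: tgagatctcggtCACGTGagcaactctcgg
Ctsd, chr7:142387908-142387937, minus strand: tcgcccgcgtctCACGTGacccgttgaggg
Cln3, chr7:126583340-126583369, minus strand: cacgggtactgtCACGTGacccccaacctg

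Genes with the motif did not move in 1 direction. Of the 14 with it, 2 rose (Ctsl and Gla) and 0 fell with LPS in WT, and on average 2 were higher in cKO (Lamp1 and Mcoln1) and 2 lower (Ctsl and Lgmn). Of the 27 members whose promoter lacks these letters in this window, 5 rose and 3 fell with LPS in WT, and 0 were higher and 2 lower in cKO on average (Gm2a and Lamp2). The median difference with LPS in WT was -0.00 with the motif and -0.07 without it. Of the 2 membrane glycoprotein genes that differed between genotypes in opposite directions, Lamp1 holds 4 copies in this window and Lamp2 none. A match is a description of the letters and does not show that a factor binds there.

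A wider list of 126 other lysosomal genes was read for comparison. Of these 125 were in the table and 108 passed the filter. LPS raised 19 and lowered 27 of them in WT and raised 21 and lowered 21 in cKO, 42.6% called in WT, close to the 42.2% of all genes. Among the 29 other hydrolases 3 rose and 7 fell in WT, and 3 rose and 6 fell in cKO. Sgsh, the gene of heparan N-sulfatase, fell by 1.99 and 1.58 in WT and cKO, and Pla2g15, the gene of lysosomal phospholipase A2, fell by 1.98 and 1.62. The acid phosphatase gene Acp2 rose by 0.81 and 1.18. Rnaset2b, a ribonuclease gene, rose by 1.92 and 2.51, with the limit that it has a near-identical copy, Rnaset2a. Of the protease inhibitors 4 of 11 in the table passed the filter, and 1 rose in WT and in cKO 1 rose and 1 fell. Cst7, the gene of cystatin F, an inhibitor of cathepsin C and related proteases, rose by 4.02 in WT (SE 0.37, adjusted p = 7.89e-05) and by 3.89 in cKO (SE 0.37, adjusted p = 0.000129). Serpinb6a fell by 0.49 in cKO.

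Of the 27 other membrane protein genes tested, 4 rose and 10 fell in WT, and 4 rose and 8 fell in cKO. The histidine and peptide transporter gene Slc15a3 rose by 2.12 and 2.16, and Clcn7, the gene of the chloride-proton exchanger of the lysosome, rose by 1.43 and 1.59. Mcoln3, a relative of Mcoln1, fell by 1.75 and 1.73, Cln6 fell by 1.67 in WT and Slc36a1 fell by 1.77 in cKO. Of 15 sorting genes 4 rose and 3 fell in WT, and 5 rose and 1 fell in cKO. The cation-dependent mannose 6-phosphate receptor gene M6pr rose by 0.98 in WT, and Gnptab, whose product makes the mannose 6-phosphate tag, rose by 1.09 in cKO. Ap3b1 rose by 1.34 in WT, whereas Gga2 fell by 1.12 in WT and 0.95 in cKO and Sort1 fell by 0.79 in WT. Of 18 further pump genes 10 passed the filter, with 2 higher and 1 lower in WT and 3 higher and 1 lower in cKO. The V0 isoform genes Atp6v0a2 and Tcirg1 rose by 0.73 and 0.68 in WT and by 1.37 and 0.77 in cKO, and the assembly factor gene Ccdc115 fell by 0.91 and 0.66. After quantile normalization Tcirg1 stood at -0.08 in WT. Among the 23 genes tested of the mTORC1 and nutrient-sensing list, which includes other relatives of Tfeb, 5 rose and 6 fell in WT, and 5 rose and 4 fell in cKO. Mitf rose by 0.91 and 0.83, Tfec rose by 0.75 and 0.80, and Rptor rose by 0.92 in cKO. Lamtor4 fell by 1.20 and 0.96, Flcn fell by 1.11 and 0.50, and Fnip2 fell by 1.04 in cKO.

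Between genotypes limma called 0 of the 108 other lysosomal genes at 0 h, with 15 at an unadjusted p under 0.05. For the interaction 0 were called, with 5 at an unadjusted p under 0.05. Over the 11543 tested genes the unadjusted p was under 0.05 for 1256 at 0 h and for 751 for the interaction. After LPS 4 of the 108 genes were higher in cKO and 1 was lower, 4.63% of the list against 3.97% of all genes. The higher ones were Slc15a4 (1.10, adjusted p = 0.0222), Cln6 (1.05, adjusted p = 0.0222), Flcn (0.70, adjusted p = 0.0437) and Akt1 (0.61, adjusted p = 0.0328). The lower one was Vma21, which encodes an assembly factor of the proton pump (-0.68, adjusted p = 0.0225). Averaged over both times 5 were higher and 3 lower, 7.41% against 7.02% of all genes, so both shares are near that of all genes. Hgsnat, a transferase of the lysosomal membrane, was higher by 1.46 (adjusted p = 0.0461), Tmem192, a lysosomal membrane protein, by 1.21 (adjusted p = 0.0326), Slc15a4 by 0.79, Cln6 by 0.70 and Akt1 by 0.50. Vma21 (-0.53), Ap3b1 (-0.49) and Slc15a3 (-0.45) were lower.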

How the data were processed

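Poly(A) RNA of 8 samples was copied with random primers, per the labels' protocols, so values cover whole transcripts. HISAT2 2.1.0, featureCounts, DESeq2, CASAVA and the genome build GRCm38 are listed without settings in the submitters' processing notes. The sources used here do not give the strand setting or the treatment of reads shared by copies. The authors deposited log2 values after a regularised log transformation (rlog). Per the file headers, further columns give fold changes (log2) from 4 comparisons the authors made, each with a p-value and an adjusted p-value. No counts were used, so depth and its error are unknown, and differences of low genes are understated.

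The 11543 genes whose mean rlog was 3 or more were fitted with 4 group means in limma 3.58.1 (R 4.3.3, eBayes with a trend), with 4 residual and 4.4 prior degrees of freedom. Benjamini-Hochberg adjustment ran over all of them, with a threshold of 0.05. There were 6 comparisons. The fit was tested on simulated data with differences planted in cKO against WT after LPS. It recovered 45% of planted log2 differences of 1 and 92% of those of 2, with 6 false calls. A gene without a call may therefore still differ. Exon lengths and positions come from GENCODE M21 (GRCm38) and promoters from RefSeq (GRCm38.p6). Values in all 8 samples are given for members called between genotypes and for the 3 largest rises and falls per role with LPS. Of other lists, up to 2 rises and 2 falls per LPS comparison and all genotype calls are named. The members and lists were chosen with earlier results of these data known. The alternatives were other filters, scalings, variance models, replicate blocks and sample sets.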

Additional observations from a re-analysis of the deposited data

Results flagged for a closer look

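Ctss, the gene of cathepsin S, was lower in both cKO samples after LPS than in both cKO samples at 0 h and higher in both WT samples after LPS than in both at 0 h. Its rlog was 16.96 and 17.19 in resting WT, 17.35 and 17.30 in LPS-treated WT, 17.17 and 17.16 in resting cKO and 16.96 and 16.80 in LPS-treated cKO cells. The difference between the 2 responses, the interaction, was -0.53 (SE 0.33, adjusted p = 0.799 by limma) and did not pass the test. Such opposite movement was seen in 1 of the 50 members (2%) and in 242 of the 11543 tested genes (2.1%).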

How the results depend on the processing

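Of 33 member calls over all comparisons, 3 held under all 9 alternatives and all 8 fits without 1 sample: the WT responses of Atp6v1d, Atp6v1e1 and Lipa. With 2 samples a group, each of the 12 genotype calls was lost without cKO LPS replicate 2. With LPS in WT, quantile normalization gave 2 higher and 22 lower, and the nested block 6 lower. With LPS in cKO, no filter on low values gave 2 higher and 1 lower, quantile normalization 0 and 20, and the nested block 7 higher. For cKO against WT after LPS, no filter gave 0 higher and 0 lower, quantile normalization 2 and 0, no variance trend 0 higher, and the fit of only the 2 groups 2 higher. For the average over both times, no filter gave 0 higher and 3 lower, and quantile normalization 3 lower. The cause was not tested, other than that no filter adds genes to the adjustment. Quantile normalization turned the LPS difference in WT of Lamp2 (-0.21), Gla (-0.22), Npc2 (-0.091), Scpep1 (-0.22) and Tcirg1 (-0.084), and in cKO of Atp6v1f (-0.069). It moved the members' median with LPS in WT from -0.05 to -0.46 and that of all genes from -0.01 to -0.09.

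Without 1 sample in turn, members higher and lower numbered 6 to 8 and 2 to 3 with LPS in WT, and 1 to 5 and 0 to 7 with LPS in cKO. They numbered 0 to 1 and 0 to 0 for cKO against WT at 0 h, 0 to 2 and 0 to 4 after LPS, 0 to 2 and 0 to 5 on average, and 0 to 0 and 0 to 0 for the interaction. A group left with 1 sample was assumed to vary like the others.

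A replicate block (the number as a term) kept all 33 calls, added calls such as Ctsl with LPS in cKO (adjusted p = 0.0455, and 0.0205 with the nested block), and gave 8 higher and 4 lower members with LPS in WT, 5 and 9 in cKO, 2 and 5 for cKO against WT after LPS, 2 and 5 on average and 0 at 0 h and for the interaction. Same-numbered samples correlated in their deviations at -0.04 to 0.31, with 0.22 between the WT groups and 0.31 between the cKO groups. The nested block also called Atp6v1h with LPS in cKO (adjusted p = 0.0387). The labels do not say whether a number marks a mouse, and samples were treated as sharing only a number.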
